A study of Mus musculus with 19 samples.

Results

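The 51 genes described here are the protein-coding mouse genes whose symbol marks a proteasome subunit, activator or assembly factor (Psma, Psmb, Psmc, Psmd, Psme, Psmf and Psmg followed by a number, plus Pomp). They were picked by symbol from the 52143 gene identifiers of the deposited table, of which 51250 had a name, and 4 pseudogenes with matching symbols were left out. By role they comprised 8 alpha-ring subunits, 7 constitutive beta-ring subunits, 4 tissue-specific or inducible beta subunits, 9 base subunits, 8 lid subunits, 6 activators or regulators and 8 assembly factors. The remaining gene, Psmc3ip, matches the symbol pattern but encodes a meiotic recombination factor and is counted only among all members. Of the 51, 49 had enough counts to be tested; Psmb8 and Psme2b had not.

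The proteasome is the barrel-shaped protease that degrades proteins tagged with ubiquitin. Its core particle is built of alpha and beta rings, and the beta subunits Psmb5, Psmb6 and Psmb7 carry the chymotrypsin-like, caspase-like and trypsin-like activities. The regulatory particle sits on the core: its base holds the ATPases Psmc1 to Psmc6 that unfold substrates, and its lid holds Psmd14, which removes ubiquitin. Pluripotent stem cells are known for high proteasome activity, and the transcription factor NRF1 (gene Nfe2l1) is known to raise many subunit genes together when the proteasome is impaired.

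The RNA came from induced pluripotent stem cell lines of 3 genotypes. Fibroblasts were taken from day 14.5 embryos of matings between OB-Rdb/+ heterozygotes, and wild-type (control) and db/db embryos gave 4 lines each; db/db animals carry a mutated leptin receptor and become obese and diabetic. The 2 further lines are db/db cells whose mutation was repaired with CRISPR-Cas9 (corrected), but their parental db/db line is not named in the labels. All lines had been reprogrammed with the STEMCCA lentivirus, which carries Oct4, Sox2, Klf4 and cMyc, so every group shares that vector. The names in the labels recur: control lines 1 and 3 are called A5 and control lines 2 and 4 B1, while db/db lines 1 and 3 are called db5 and db/db lines 2 and 4 db7. Each name occurs once with the prefix a and once with b, followed by B6 in control lines and db in db/db lines, and the labels explain neither the prefix nor B6. Whether the 2 lines of a name come from the same embryo or clone is not stated. The line is the replicate here (n = 4, 4 and 2); if lines of a name are 1 clone, control and db/db hold 2 independent units each and the SDs, SEs and p-values over lines are too small.

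Each line was sequenced as 2 libraries except control line 1 (1 library), 19 in all, with 27333914 to 41203703 estimated counts each. Members together took 0.682% to 0.817% of the counts of a library. The pluripotency genes Pou5f1 (1287 to 1604 CPM, a count scaled by library size) and Nanog (384 to 617 CPM) were high in all 10 lines, whereas Ptprc, which marks blood cells, was at most 0.26 CPM, Afp and Ttr, markers of extraembryonic endoderm, at most 0.124 CPM, and the fibroblast genes Dcn and Lum at most 0.325 CPM. Other markers of these cell types were expressed. The fibroblast list (12 genes) summed to 280 to 376 CPM in control, 150 to 215 CPM in db/db and 209 to 260 CPM in corrected lines. In the same order, the extraembryonic endoderm list (14 genes) summed to 629 to 724, 511 to 641 and 888 to 919 CPM. The blood cell list (12 genes) summed to 34.1 to 37.5, 25.4 to 30.4 and 32.6 to 34.0 CPM. The mutated gene, Lepr, was at 0.186 to 0.718 CPM in every line, and counts summed over a gene do not show a point mutation such as db. The labels do not say that the lines or duplicates were grown separately, so a p-value measures only the spread between these lines. In some members corrected libraries were closer across lines than within them. As CPM of the library total, Psmb4 was at 158 and 178 in libraries a and b of corrected line 1, and at 174 and 158 in those of line 2. Psmb5 was at 100, 116, 112 and 102 CPM in the same order. Sums per line average over this, so the nearness of the 2 corrected lines hides a spread between their libraries.

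The stretches below carry the antioxidant response element core, TGACNNNGC, which NRF1 is known to bind. Whether NRF1 acts on these genes in these lines was not tested. The motif was searched on both strands of RefSeq promoter windows (250 bases before to 50 bases after the start, build GRCm38.p6), which existed for 43 members. It was present in 6 of the 43 (14.0%), against 14.0% of 27025 genes with a window. The 4 stretches printed are those with the motif within 50 bases of the start, capitals mark the motif, and positions count from 0 at the first transcribed base, with bases before it negative.
Psmb5, chr14:54618029-54618082, minus strand, motif at -47 to -39: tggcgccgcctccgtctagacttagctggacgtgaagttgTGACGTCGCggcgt
Psmb6, chr11:70525308-70525361, plus strand, motif at -9 to -1: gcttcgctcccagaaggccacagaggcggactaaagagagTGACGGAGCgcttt
Psmd9, chr5:123228119-123228172, plus strand, motif at -31 to -23: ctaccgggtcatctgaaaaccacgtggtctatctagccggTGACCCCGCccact
Psme4, chr11:30771728-30771781, plus strand, motif on the opposite strand at -7 to 1: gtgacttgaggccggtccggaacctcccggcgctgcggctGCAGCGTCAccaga
The other members with the motif were Psmd12 and Psmc6. Of these 6 genes, Psmb5, Psmb6, Psmd9 and Psmd12 were lower in corrected than in db/db lines, Psme4 was higher and Psmc6 was not called, as given below. Of all 49 tested members 32 were lower and 1 was higher in that comparison. Of all tested genes 18% were lower, and of genes that averaged at least 100 CPM 43.9%. The calls of the 6 genes are thus no result about the motif. The CCAAT box (CCAAT, both strands), which none of these 6 held, was in 15 of the 43 members (34.9%) and in 41.1% of all genes with a window.

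Per kilobase of transcript, the constitutive subunits of core, base and lid lay close together. In control lines their mean levels ran from 61.9 CPM per kilobase for Psmc6, a base ATPase, to 251 for Psmb6, a 4.05-fold range over 31 genes. The beta ring had the highest median (186 CPM per kilobase over 7 genes), followed by the alpha ring (149 over 8), the base (145 over 9) and the lid (103 over 8), and these ranges overlapped. Activators (median 46.7 over 6) and assembly factors (24.0 over 8) were lower per kilobase, with Pomp, the core maturation factor, highest among the assembly factors at 73.0. Psma8, the testis form of the alpha subunit Psma7, stood at 9.39% of the level of Psma7 per kilobase in control lines, 8.29% in db/db and 6.74% in corrected lines.

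The inducible beta subunits were nearly silent apart from Psmb10. Psmb8, Psmb9 and Psmb10 replace Psmb5, Psmb6 and Psmb7 in the immunoproteasome, which interferon induces. Psmb8 had 0 to 7 counts per line and 33 counts over all lines, and its mean per kilobase was 0.0203% of that of Psmb5 in control lines. Psmb9 had 2 to 20 counts per line, at most 0.289 CPM. Psmb10 reached 7.5 to 9.01 CPM in control lines, which was 3.58% of Psmb7 per kilobase, against 3.76% in db/db and 2.40% in corrected lines. Psmb11, the subunit of the thymus proteasome, stayed between 0.345 and 0.83 CPM. Psme2b, a copy of the activator subunit Psme2, had 0 counts in every line, where 3 counts would be 0.0410 to 0.0728 CPM. Because estimated counts divide reads between near-identical sequences, the values of Psme2 and Psme2b, and of subunits with pseudogenes, are uncertain.

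**Figure D1:**
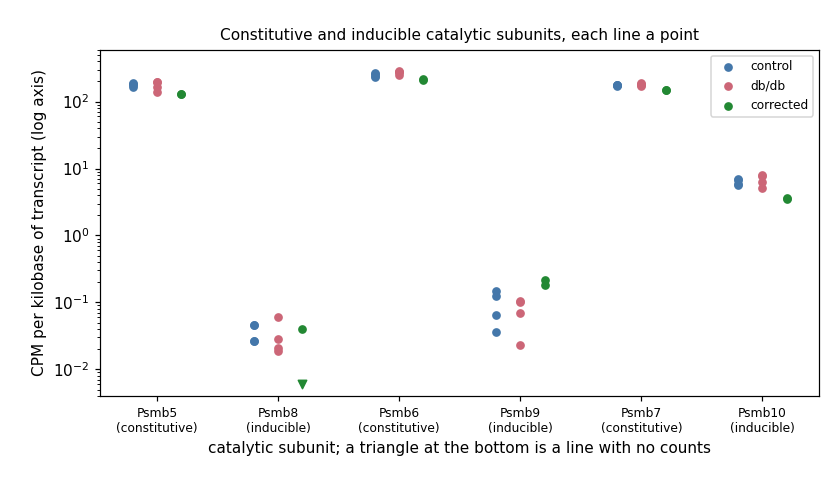
Level of the 3 constitutive catalytic subunits and their inducible partners, in CPM per kilobase of transcript on a log axis; each point is a line, coloured by group, and the triangle is a corrected line with no Psmb8 counts. The constitutive subunits and their inducible partners do not overlap in any group, and Psmb10 is the only inducible partner above 1 CPM per kilobase.

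Before groups are compared, lines of the same name resembled each other and differed from the other name of their group. Both db7 lines were below both db5 lines in 39 of 49 tested members (79.6%) and above in 3, while over all 19700 tested genes both db7 lines were below in 33.8% and above in 33.9%. All 8 lid subunits and 8 of 9 base subunits were lower in db7 lines, and the medians of log2 db7 over db5 were -0.19 in the lid and -0.12 in the base. In controls both B1 lines were below both A5 lines in 25 members (51.0%) and above in 13 (26.5%), against 35.8% below and 35.8% above over all tested genes. The largest split among the constitutive subunits of db/db lines was in Psmd3, a lid scaffold, at 296 and 284 CPM in db5 lines against 236 and 210 CPM in db7 lines. Psmd10, the X-linked base chaperone also called gankyrin, was at 14.3 and 14.8 CPM in db5 lines and at 7.80 and 7.46 CPM in db7 lines. The db7 lines lay within the control range or just under it (7.70 to 8.81 CPM), so that the db/db mean of 11.1 ± 3.99 CPM (SD, n = 4) described neither name. Psmg1, an alpha-ring chaperone, was at 77.5 and 75.1 CPM in A5 lines and at 49.2 and 50.6 CPM in B1 lines.

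**Figure D2:**
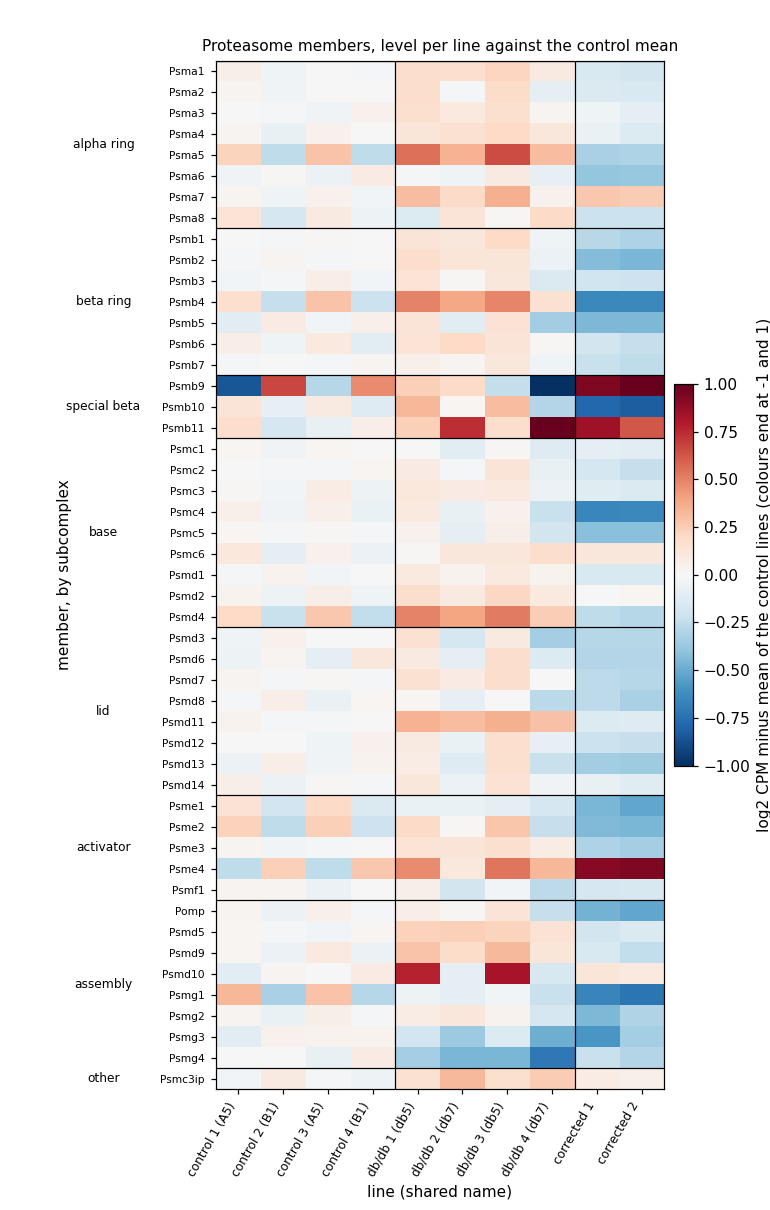
Log2 CPM of each tested member in each line (columns) minus the mean of the 4 control lines, with members (rows) grouped by subcomplex and colours ending at -1 and 1; special beta means Psmb9, Psmb10 and Psmb11. Both corrected columns are blue in most rows of the core, base and lid, the db5 columns are redder than the db7 columns, and Psme4 and, more faintly, Psma7 are among the rows that are red in both corrected lines.

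The question of the first comparison was what differs between db/db and wild-type lines. Of 49 tested members, 8 (16.3%) were higher in db/db lines (Psma1, Psma5, Psma7, Psmd4, Psmd11, Psmd5, Psmd9 and Psmc3ip). A single member, Psmg4 (2.04%), was lower, and 40 were not called. Over all tested genes 16.9% were called in either direction. An edgeR quasi-likelihood adjusted p under 0.05 (Benjamini-Hochberg, over all tested genes) is a call throughout. Over all 19700 tested genes 7.41% were called higher and 9.5% lower, and among the 2257 genes that averaged at least 100 CPM 11.96% were called higher and 4.30% lower. The median log2 fold change of the members was 0.06, against -0.00 for all tested genes and 0.05 for genes of at least 100 CPM. By subcomplex, 3 of 8 alpha-ring, 0 of 7 beta-ring, 1 of 9 base, 1 of 8 lid, 0 of 5 activator and 2 of 8 assembly members were higher. With the shared name as the unit (2 against 2) edgeR called 0 members and 0.161% of all genes. At an unadjusted p under 0.05 there were 3 of 49 members, against 15.9% of all genes.

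Psmd11 (chr11:80428615-80473248, GRCm38), the lid subunit Rpn6 that braces the lid against the core, differed most clearly. It was at 198 and 192 CPM in A5 lines, 192 and 193 CPM in B1 lines, 247 and 248 CPM in db5 lines, and 240 and 237 CPM in db7 lines. All 4 db/db lines lay above all 4 control lines, and names within a group nearly coincided. The log2 fold change was 0.33 ± 0.04 (SE), with an edgeR adjusted p of 0.000902. Psmd5, a chaperone of the base ATPases, was at 87.5 to 90.3 CPM in control and 98.6 to 105 CPM in db/db lines (log2 fold change 0.21 ± 0.04, edgeR adjusted p = 0.0115). Again no db/db line overlapped the controls. Psmg4, partner of Psmg3 in building the alpha ring, went the other way: it was at 17.4, 17.4, 16.5 and 18.5 CPM in control lines 1 to 4, and db/db lines 1 to 4 were at 13.7, 12.7, 12.7 and 10.6 CPM. Its log2 fold change was -0.49 ± 0.09 (edgeR adjusted p = 0.00638), and the groups did not overlap. The calls of Psmd11, Psmd5 and Psmg4 held in 26 of 27 alternative analyses and were lost with the shared name as the unit (edgeR adjusted p = 0.153, 0.281 and 0.198).

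The other 6 calls were close to the threshold. Psma7, an alpha subunit, was at 162 to 172 CPM in control lines, 207 and 213 CPM in db5 lines, and 190 and 172 CPM in db7 lines (log2 fold change 0.23 ± 0.07, edgeR adjusted p = 0.0436). Line db/db 4 and the highest control line were both at 172 CPM. Psma1, which had the lowest p of the alpha ring, was at 178 to 191 CPM in control and 195 to 212 CPM in db/db lines (log2 fold change 0.16 ± 0.05, edgeR adjusted p = 0.0363). Psmd9, a base chaperone whose promoter stretch is printed above, was at 30.2 to 33.7 CPM in control and 34.2 to 39.4 CPM in db/db lines (log2 fold change 0.23 ± 0.07, edgeR adjusted p = 0.0428). These 3, with Psma5, Psmd4 and Psmc3ip, kept their call in 9 to 11 of their 26 or 27 alternatives. The number of members called higher was 5 without control line 1, 2 without control line 2 or 4, 3 without db/db line 1, 2 without db/db line 2 or 3, and 2 without either corrected line. Over these fits 3.99% to 7.01% of all genes were called higher. It was 4 without both db5 lines, with 12.7% of all genes higher, and 14 without both db7 lines, with 8.21% of all genes higher. The members' median log2 fold change was then -0.03 and 0.13.

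**Figure D3:**
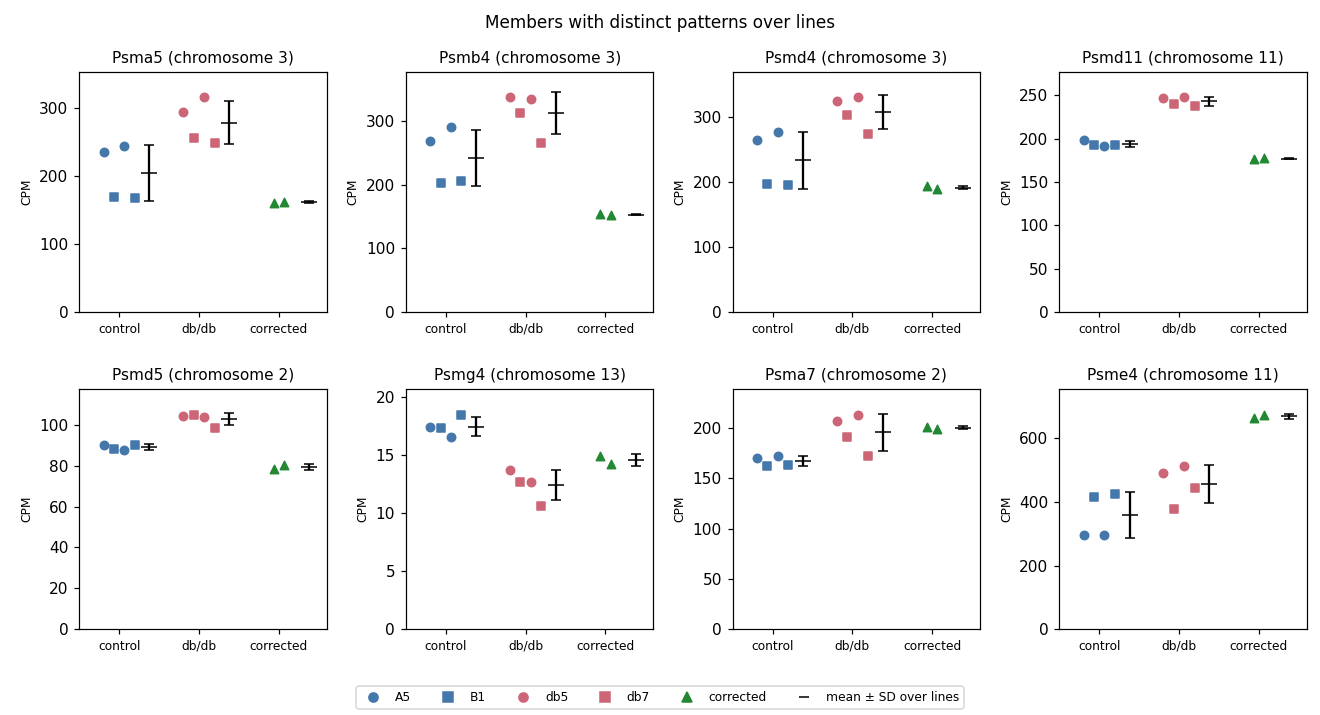
CPM of 8 members in each line, with circles for the names A5 and db5, squares for B1 and db7, triangles for corrected lines, and black bars for the mean ± SD over lines. Psmd11 and Psmd5 separate control from db/db lines in both names, the chromosome 3 genes Psma5, Psmb4 and Psmd4 split by name, and Psme4 is highest in the corrected lines.

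The second comparison asks what differs once the mutation has been corrected. In corrected lines 32 of 49 members fell against db/db lines, 1 rose and 16 were not called. Of all tested genes 18% were called lower and 18.7% higher, and of genes of at least 100 CPM 43.9% were called lower and 5.94% higher. The median log2 fold change of the members was -0.30, against 0.02 for all tested genes and -0.22 for genes of at least 100 CPM. All 7 beta-ring subunits fell, as did 5 of 8 in the alpha ring, 6 of 9 in the base, 5 of 8 in the lid, 3 of 5 activators and 5 of 8 assembly factors. Among these calls, those of Psmb3 (beta ring), Psma3 (alpha ring) and Psmc3 (base) were kept in only 9, 10 and 11 of 26 alternatives. The 31 constitutive subunits of core, base and lid summed to 6325, 6052, 6372 and 6071 CPM in control lines 1 to 4. In db/db lines 1 to 4 this sum was 6973, 6517, 7089 and 6149 CPM, and in the corrected lines it was 5385 and 5327 CPM. Both corrected lines were below every other line in this sum.

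The size of this difference depended on the scaling. With TMM factors taken only from genes of at least 100 CPM, an alternative chosen after the data had been seen, 13 members were lower and 6 higher, against 8.1% and 29.0% of all genes, the members' median was -0.09 and the median of all genes moved to 0.23. With library size alone 16 members were lower and 3 higher (median -0.13), against 9.22% and 26.5% of all genes. Among genes that averaged at least 10 CPM 18 members were lower and 2 higher (median -0.19), against 20.5% and 21.5% of those genes. The direction of the median held in all of these. With the shared name as the unit 15 members were lower (7.81% of all genes), and without the first or the second corrected line 16 and 14 (7.13% and 7.15% of all genes). Because bulk RNA was measured, fewer cells of a type and less RNA per cell cannot be told apart. Other gene groups also differed between corrected and db/db lines. Of 12 pluripotency genes 6 were lower and 1 higher (summed 6257 and 6281 CPM in corrected, 6895 to 7303 CPM in db/db lines). Of 12 tested extraembryonic endoderm genes 9 were higher and 0 lower (summed 888 to 919 against 511 to 641 CPM), with Afp and Ttr at or near 0. In the main fit 18% of all tested genes were lower and 18.7% higher. Among genes of at least 100 CPM these shares were 43.9% and 5.94%. The part of these gene groups in the result was not tested.

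In the core, the clearest fall was in Psmb2, a structural beta subunit. It was at 181, 174, 174 and 153 CPM in db/db lines 1 to 4, against 118 and 117 CPM in the corrected lines, below the lowest db/db line (log2 fold change -0.54 ± 0.07, edgeR adjusted p = 0.000457). Psmb5, the chymotrypsin-like subunit, was at 147, 124, 149 and 106 CPM in db/db and 98.6 CPM in each corrected line (log2 fold change -0.42 ± 0.13, edgeR adjusted p = 0.0281). Its db/db lines split by name, and the db7 line 4 came nearest to the corrected lines. Psmb6, the caspase-like subunit, was at 219, 229, 219 and 201 CPM in db/db and 176 and 170 CPM in corrected lines. Psmb7, the trypsin-like subunit, was at 211, 207, 220 and 198 CPM in db/db and 175 and 171 CPM in corrected lines. Neither pair of groups overlapped, and the log2 fold changes were -0.33 ± 0.08 and -0.27 ± 0.06 (edgeR adjusted p = 0.00826 and 0.00438). With factors from genes of at least 100 CPM the calls of Psmb5, Psmb6 and Psmb7 were lost (log2 fold change -0.21, -0.12 and -0.07, edgeR adjusted p = 0.212, 0.221 and 0.364), and over all 26 alternatives they were lost in 10, 5 and 4. Psmb10, the inducible partner of Psmb7, was at 10.3, 8.36, 10.2 and 6.69 CPM in db/db and 4.76 and 4.63 CPM in corrected lines, a log2 fold change of -0.92 ± 0.18 (edgeR adjusted p = 0.00382). The corrected lines lay below every db/db line for this subunit too. In the alpha ring Psma1 had the lowest p, at 207, 206, 212 and 195 CPM in db/db and 165 and 161 CPM in corrected lines (log2 fold change -0.33 ± 0.06, edgeR adjusted p = 0.00183). Psma7 was the exception in that ring, at 201 and 199 CPM in corrected lines, between the db/db lines (log2 fold change 0.03 ± 0.08).

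In the regulatory particle, Psmc4, an ATPase of the base, was at 214, 190, 206 and 171 CPM in db/db lines 1 to 4, against 127 and 128 CPM in the corrected lines. This was a log2 fold change of -0.61 ± 0.09 (edgeR adjusted p = 0.000775), and the groups did not overlap. Its fellow ATPases were uneven: Psmc5 fell (log2 fold change -0.38 ± 0.07), Psmc2 and Psmc3 fell by less (-0.23 ± 0.06 and -0.19 ± 0.06), and Psmc1 and Psmc6 were not called (-0.05 ± 0.06 and 0.01 ± 0.07). With factors from genes of at least 100 CPM, Psmc3 turned to 0.02 and Psmc1 to 0.16. In the lid, Psmd11 was at 176 and 178 CPM in corrected lines, against 237 to 248 CPM in db/db (log2 fold change -0.46 ± 0.05, edgeR adjusted p = 0.000198). The control lines were at 192 to 198 CPM, and corrected against control was not called (log2 fold change -0.13, edgeR adjusted p = 0.0646) and turned to 0.03 with factors from genes of at least 100 CPM. Psmd7, the partner of Psmd14 in removing ubiquitin, fell by 0.38 ± 0.06 on the log2 scale (edgeR adjusted p = 0.00131). Psmd14 itself was not called, at 182, 162, 186 and 164 CPM in db/db and 160 and 154 CPM in corrected lines (log2 fold change -0.14 ± 0.07, edgeR adjusted p = 0.146).

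Among activators, Psme3, the nuclear activator PA28-gamma, was at 259, 257, 263 and 248 CPM in db/db and 190 and 186 CPM in corrected lines (log2 fold change -0.45 ± 0.05, edgeR adjusted p = 0.000235). Its groups did not overlap, and its db/db lines differed little by name. The interferon-inducible pair Psme1 and Psme2 also fell (log2 fold change -0.39 ± 0.11 and -0.52 ± 0.18), and Psmf1, an inhibitor of the core in vitro, was not called (-0.07 ± 0.09). Among assembly factors, Pomp was at 120, 116, 126 and 98.3 CPM in db/db and 82.8 and 80.5 CPM in corrected lines (log2 fold change -0.50 ± 0.09, edgeR adjusted p = 0.0028). Psmd5 was at 78.4 and 80.3 CPM in corrected lines, against 98.6 to 105 CPM in db/db (log2 fold change -0.38 ± 0.05, edgeR adjusted p = 0.000778). Corrected lines were below db/db lines without overlap for both factors. Psmg1 and Psmg2, which form a chaperone of the alpha ring, were both lower (log2 fold change -0.60 ± 0.19 and -0.39 ± 0.09). Their calls were lost in 11 and 4 of 26 alternatives. Psmg3 and Psmg4, the other chaperone of that ring, were not called (-0.17 ± 0.12 and 0.23 ± 0.11). The calls that held in all alternatives in which the gene could be tested were those of 10 members: Psmb1, Psmb2, Psmb4, Psmb10, Psmc4, Psmd7, Psmd11, Psme3, Pomp and Psmd5.

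**Figure D4:**
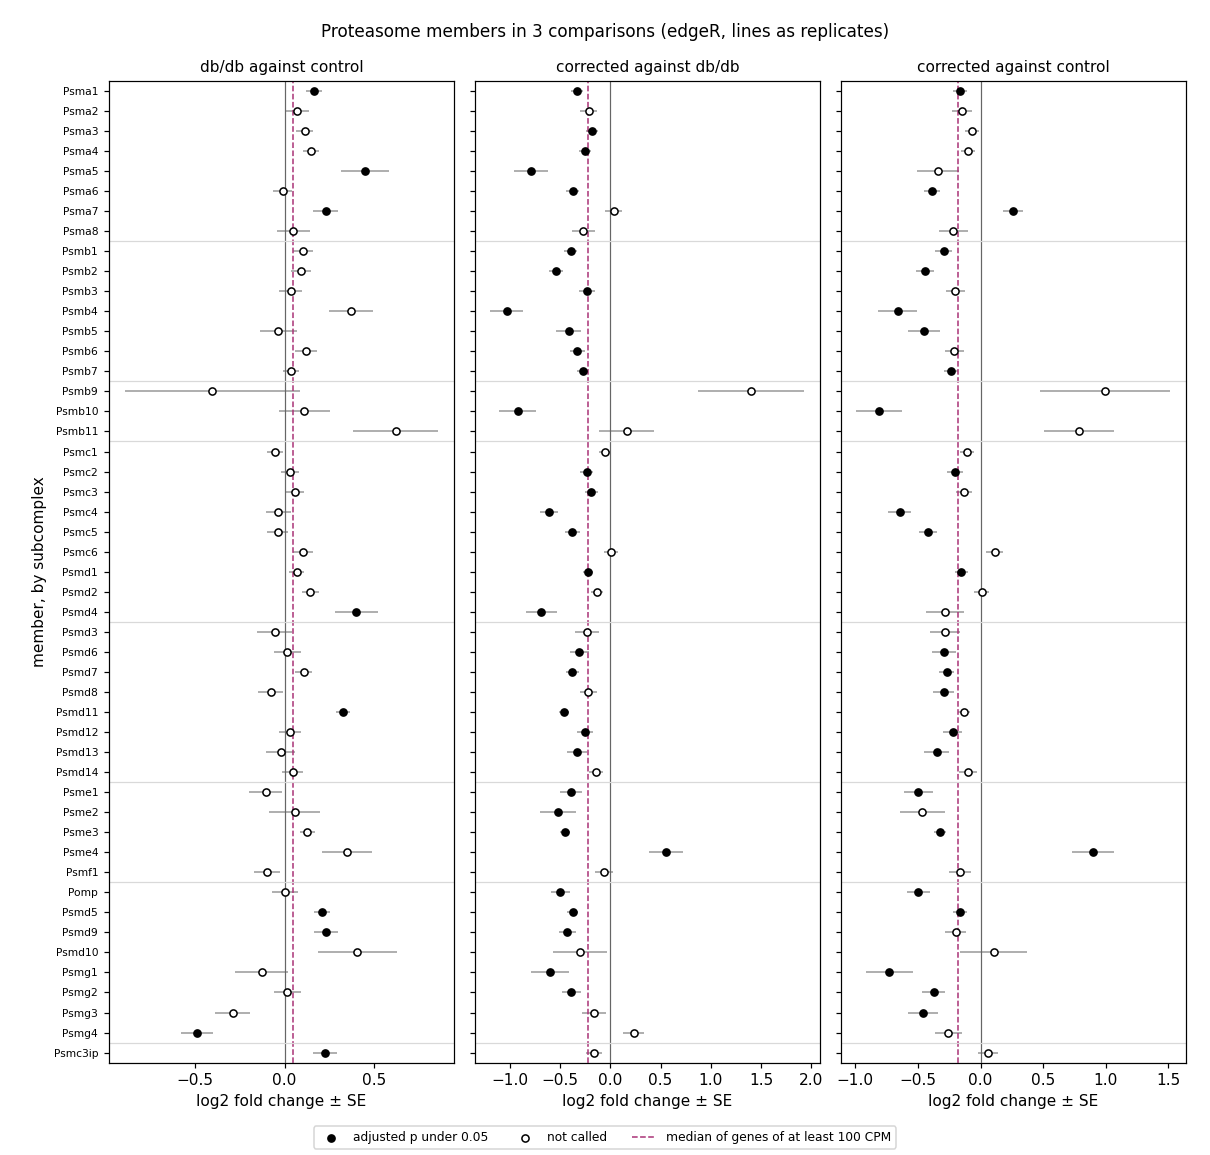
Log2 fold change ± SE of each tested member in the 3 comparisons, by subcomplex from the alpha ring at the top to the assembly factors and Psmc3ip at the bottom; filled points have an edgeR adjusted p under 0.05 and the dashed line is the median of genes of at least 100 CPM. In the corrected comparisons most points lie left of 0 and close to the dashed line, with Psmb4, Psmb10 and Psmc4 among those left of it and Psme4 and Psmb9 (not called) right of it.

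The third comparison sets the corrected lines against the wild type. Here 24 of 49 members were lower, 2 were higher (Psma7 and Psme4) and 23 were not called, while 17% of all tested genes were lower and 16.2% higher, and 38.6% of genes of at least 100 CPM were lower and 7.71% higher. The members' median log2 fold change was -0.22, against -0.01 for all tested genes and -0.18 for genes of at least 100 CPM. By subcomplex 2 of 8 alpha-ring, 5 of 7 beta-ring, 4 of 9 base, 5 of 8 lid, 2 of 5 activator and 5 of 8 assembly members were lower. This comparison shares its corrected lines with the second one and its control lines with the first, so the lists of calls are not independent. Of the 49 tested members, 20 (40.8%) were lower in corrected lines against both other groups with no call between db/db and control, as were 10.6% of all tested genes and 29.2% of genes of at least 100 CPM. A pair, Psma1 and Psmd5 (4.08%), were higher in db/db and lower in corrected lines against both, as were 0.858% of all genes and 2.26% of those of at least 100 CPM. Their calls against control were lost in 17 and 16 of 26 alternatives. A further 4 (8.16%) were higher in db/db than in control and lower in corrected than in db/db lines, with no call between corrected and control, against 2.27% and 4.96%.

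Psmc4 had the lowest p in the base here too, with control lines at 207, 195, 207 and 191 CPM against 127 and 128 CPM (log2 fold change -0.65 ± 0.09, edgeR adjusted p = 0.000723). Psma6, an alpha subunit, was at 151, 156, 149 and 165 CPM in control, 154, 150, 165 and 147 CPM in db/db, and 119 CPM in each corrected line (log2 fold change -0.39 ± 0.07 against control, edgeR adjusted p = 0.00211). Control and db/db lines overlapped for both genes, and the corrected lines lay apart below them. Psmb2 was at 158, 163, 158 and 161 CPM in control lines, above both corrected lines (log2 fold change -0.44 ± 0.07, edgeR adjusted p = 0.00141). Psme3 was at 240, 231, 234 and 236 CPM in control lines (log2 fold change -0.32 ± 0.05, edgeR adjusted p = 0.00144), and Pomp at 117, 110, 119 and 114 CPM (log2 fold change -0.50 ± 0.09, edgeR adjusted p = 0.00324). Psmd7 had the lowest p of the lid, at 221, 215, 218 and 214 CPM in control against 181 and 179 CPM in corrected lines (log2 fold change -0.27 ± 0.06, edgeR adjusted p = 0.00756). None of these overlapped the corrected lines. The catalytic subunits Psmb5 and Psmb7 were lower (log2 fold change -0.45 ± 0.13 and -0.24 ± 0.06), with control lines at 125, 142, 132 and 139 CPM and at 202, 205, 201 and 207 CPM. Psmb6 was at 209, 194, 213 and 185 CPM in control lines and was not called (log2 fold change -0.21 ± 0.08, edgeR adjusted p = 0.0568). Psmb10 was at 9.01, 7.75, 8.73 and 7.5 CPM in control lines (log2 fold change -0.81 ± 0.18, edgeR adjusted p = 0.00802).

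With factors from genes of at least 100 CPM 10 members were lower and 5 higher, against 9.04% and 24.4% of all genes, with a members' median of -0.06 and an all-gene median of 0.15. With library size alone 10 were lower and 4 higher, against 10.4% and 22.4% of all genes. Without the first or second corrected line 6 and 5 were lower (5.46% and 5.24% of all genes), and with the shared name as the unit 6 were lower and 1 was higher (6.25% and 5.81% of all genes). Without control line 1, 2 or 4, or without either corrected line, 1 member was higher. Psma6, Psmb2, Psmc4, Psmc5, Psme3 and Psme4 kept their call in all alternatives.

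Psme4, which encodes the nuclear activator PA200 (chr11:30771726-30880361, GRCm38), was the 1 member called higher in corrected lines against both other groups. It was at 296 CPM in both A5 lines, 415 and 425 CPM in B1 lines, 490 and 512 CPM in db5 lines, 379 and 444 CPM in db7 lines, and 662 and 675 CPM in the corrected lines. Both corrected lines were above all other lines, and within the controls the names differed by 0.51 on the log2 scale. The rise was 0.90 ± 0.17 on the log2 scale against control (edgeR adjusted p = 0.00317) and 0.55 ± 0.17 against db/db (edgeR adjusted p = 0.0283). The latter call was lost with the shared name as the unit (edgeR adjusted p = 0.0936), without db/db line 2, without both db7 lines, and without either corrected line. Psme4 made up the largest share of the summed level of the activators, which was 653 to 768 CPM in control, 744 to 894 CPM in the db/db group, and 943 and 950 CPM in corrected lines. With TMM-scaled library sizes, the alpha ring, beta ring, base, lid and assembly factors had their lowest sums in the corrected lines. As CPM of the library total this did not hold for the alpha ring, where control line 2 had a lower sum than both corrected lines. Psma7 was likewise higher in corrected than in control lines, at 201 and 199 against 162 to 172 CPM (log2 fold change 0.26 ± 0.08, edgeR adjusted p = 0.0336), a call that was lost in 9 of 26 alternatives.

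**Figure D5:**
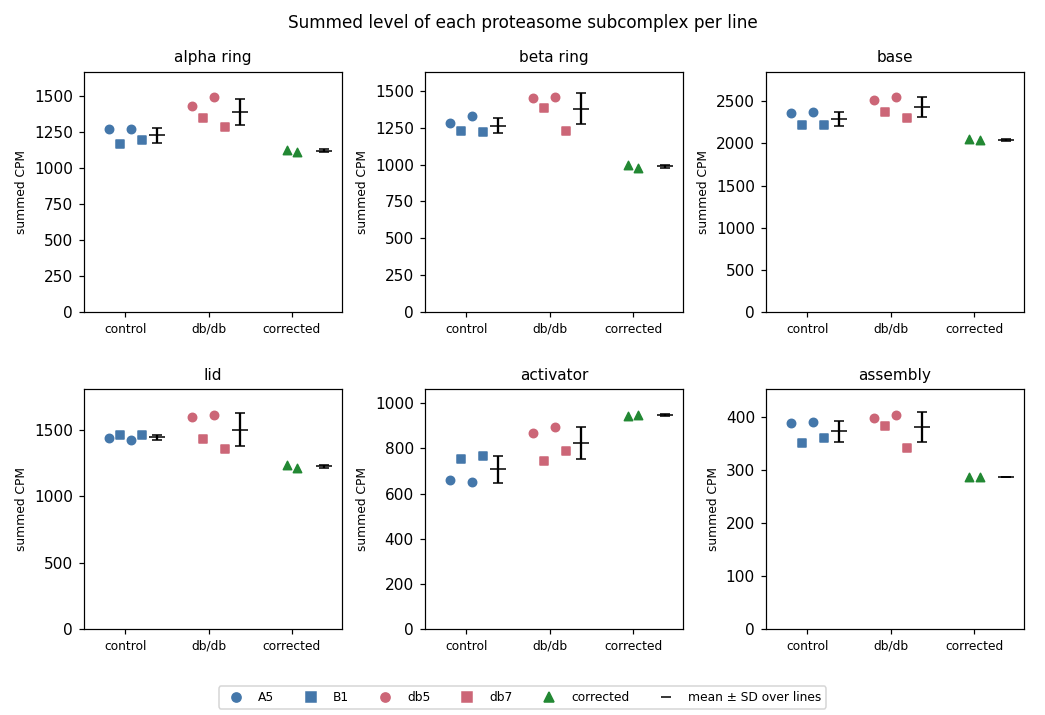
Summed CPM per line of each subcomplex, from 0, with circles for A5 and db5, squares for B1 and db7, triangles for corrected lines, and black bars for the mean ± SD over lines. With these TMM-scaled values, corrected lines have the lowest sums in the alpha ring, beta ring, base, lid and assembly factors. They have the highest sums in the activators, where Psme4 weighs most.

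The 3 members on chromosome 3 had the largest falls among the constitutive subunits in corrected against db/db lines. They are Psma5, an alpha subunit (chr3:108256926-108279974), Psmb4, a structural beta subunit (chr3:94884093-94886961), and Psmd4, the ubiquitin receptor Rpn10 (chr3:95032694-95042614, all GRCm38). Psmb4 was at 268 and 291 CPM in A5 lines, 203 and 206 CPM in B1 lines, 337 and 335 CPM in db5 lines, 313 and 266 CPM in db7 lines, and 153 CPM in each corrected line. Psmd4 was at 264 and 277 CPM in A5, 197 and 195 CPM in B1, 325 and 330 CPM in db5, 303 and 273 CPM in db7, and 193 and 189 CPM in corrected lines. Psma5 was at 235 and 245 CPM in A5, 169 and 168 CPM in B1, 294 and 316 CPM in db5, 256 and 249 CPM in db7, and 160 and 162 CPM in corrected lines. The order of the names was the same in all 3 genes, with db5 highest and the corrected lines at or below the B1 lines.

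Against db/db the log2 fold changes in corrected lines were -1.03 ± 0.16 for Psmb4, -0.69 ± 0.15 for Psmd4 and -0.79 ± 0.17 for Psma5 (edgeR adjusted p = 0.00113, 0.00688 and 0.00616). In db/db against control Psma5 and Psmd4 were called (0.45 ± 0.14 and 0.40 ± 0.12, edgeR adjusted p = 0.0475 and 0.0482) and Psmb4 was not (0.37 ± 0.12, edgeR adjusted p = 0.0678). Against control, Psmb4 was the 1 of these 3 that was lower in corrected lines (-0.66 ± 0.16, edgeR adjusted p = 0.0105). The median of 422 genes of the chromosome, as log2 CPM against the control mean, was 0.07 and 0.06 in A5, -0.08 and -0.06 in B1, 0.14 and 0.15 in db5, 0.47 and 0.49 in db7, and -0.08 and -0.09 in corrected lines. The chromosome median was highest in db7 lines, and these 3 members were highest in db5 lines. On the same scale, the median of the other 46 tested members was 0.12 and 0.14 in db5 and 0.02 and -0.08 in db7 lines. The median of these 3 members was 0.50 and 0.52 in db5 and 0.39 and 0.25 in db7 lines. The part of the chromosome in the levels of these 3 members was not tested. Of the other 46 tested members, 29 (63.0%) were lower in corrected than in db/db lines, with a median of -0.27. The shares were 18% of all tested genes and 43.9% of genes of at least 100 CPM (median -0.22). In db/db against control 6 of these 46 (13.0%) were higher, against 7.41% and 11.96%.

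The lists of genes that act with the proteasome are read against the shares of all tested genes given above. These were 18% lower and 18.7% higher in corrected against db/db lines (43.9% and 5.94% at 100 CPM or more), 17% and 16.2% against control, and 9.5% and 7.41% in db/db against control. Of 18 further subunits and cofactors, 9 were lower and 3 higher in corrected against db/db lines (median log2 fold change -0.27), 4 and 3 against control, and 2 and 3 in db/db against control. The ubiquitin receptor Adrm1 and the lid peptide Sem1, which are subunits without a Psm symbol, fell in corrected against db/db lines (log2 fold change -0.36 ± 0.10 and -0.27 ± 0.08). Ecpas, a proteasome adaptor and scaffold also called Ecm29, was higher in corrected and lower in db/db lines. It was at 64.7, 49.97, 61.0 and 52.3 CPM in control, 38.7, 36.6, 40.6 and 40.2 CPM in db/db, and 97.0 and 95.9 CPM in corrected lines, with no overlap between any 2 groups. Its log2 fold change was -0.54 ± 0.08 in db/db against control and 1.30 ± 0.10 in corrected against db/db (edgeR adjusted p = 0.00314 and 4.28e-05). The X-linked shuttle factor Ubqln2 was higher in db/db than in control lines (1.05 ± 0.10).

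Of 16 genes around NRF1 and related regulators, 6 were lower and 0 higher in corrected against db/db lines (median log2 fold change -0.14; 18% of all genes and 43.9% of those of at least 100 CPM were lower), 4 and 1 against control, and 1 and 2 in db/db against control. Nfe2l1 itself was called in none of the 3 comparisons. It was at 249, 234, 246 and 230 CPM in control, 240, 213, 240 and 212 CPM in db/db, and 211 and 209 CPM in corrected lines. The corrected lines were lowest, close to the db7 lines. Ddi2, the protease that activates NRF1, was higher in db/db than in control lines (log2 fold change 0.19 ± 0.05, edgeR adjusted p = 0.0189) and lower in corrected than in db/db lines (-0.30 ± 0.06, edgeR adjusted p = 0.0029). Stat3 fell in corrected lines by 0.87 ± 0.06 on the log2 scale against control (edgeR adjusted p = 2.74e-05), and Maff, a small Maf partner of NRF1, by 0.81 ± 0.14.

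Of 23 ubiquitin genes and ubiquitin-transferring enzymes, 9 were lower and 1 higher in corrected against db/db lines (median log2 fold change -0.25, with the same shares over all genes), 7 and 0 against control, and 1 and 1 in db/db against control. Ube2d3, a ubiquitin-conjugating enzyme on chromosome 3, was at 424 to 550 CPM in control, 698 and 729 CPM in db5, 1055 and 1050 CPM in db7, and 395 and 387 CPM in corrected lines. Among db/db lines it was higher in db7 than in db5 lines, as was the median of the chromosome. The part of the chromosome in its level was not tested. Of 20 tested antigen-presentation and interferon genes, 7 were higher and 0 lower in corrected against db/db lines (median log2 fold change 0.33, where 18.7% of all genes were higher and 18% lower), 5 and 1 against control, and 1 and 2 in db/db against control. Tap1, the peptide transporter that neighbours Psmb9 in the major histocompatibility locus, was at 0.943 to 1.68 CPM in control and db/db lines and at 5.23 and 5.02 CPM in corrected lines (log2 fold change 2.12 ± 0.22 against db/db, edgeR adjusted p = 0.000141). Psmb9 was at 0.248 and 0.289 CPM in corrected lines against 0.0313 to 0.201 CPM elsewhere, and it was not called (edgeR adjusted p = 0.0628 against db/db).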

How the data were processed

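Poly(A) RNA was made into stranded TruSeq libraries, per the labels' protocols. The authors deposited estimated counts per Ensembl gene for 19 libraries; kallisto and GRCm38 are named per the submitters' processing notes, and its version, its index and the gene-level summing are not stated there or given in other sources used here. Estimated counts split reads between similar genes, and 79.7% of values were whole within 1e-06.

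Names, types and coordinates came from GENCODE M21 and promoter windows from RefSeq. Counts were rounded per library and summed per line, giving 10 lines (4 control, 4 db/db, 2 corrected) as replicates. All groups entered 1 fit in edgeR 4.0.16 (R 4.3.3), with filterByExpr (19700 genes), TMM scaling, the quasi-likelihood F-test and Benjamini-Hochberg adjustment at 0.05 over all tested genes. CPM values are divided by TMM-scaled library sizes. The standard error (SE) is the absolute log2 fold change over the square root of F. Levels per kilobase use the median length of the annotated protein-coding transcripts of a gene. This need not be the length expressed in these lines, so comparisons of genes and subcomplexes per kilobase are approximate. Log2 values per line had a prior count of 2. Tested members had 2 to 50766 counts per line, median 10103.

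The members and gene lists were chosen with earlier results of these data known, so lists are described by counts and medians only. Values in every line are given for the catalytic subunits, Pomp, Psme4, Psmd14 and the member with the lowest p of each subcomplex and comparison. Of each other gene list, Nfe2l1, Ddi2, Adrm1 and Sem1 and up to 4 genes with the lowest p per comparison could be named. Psma5, Psmd4, Psmb4, Psma7, Psmd3, Psmd5, Psmd9, Psmd10 and Psmg1 are shown in more detail after their values were seen. Over all tested genes 7.41% were higher and 9.5% lower in db/db against control. These shares were 18.7% and 18% in corrected against db/db, and 16.2% and 17% in corrected against control. The fibroblast list (12 genes, 11 tested) had 0 higher and 7 lower in db/db against control, 4 and 0 in corrected against db/db, and 1 and 1 in corrected against control. For the blood cell list (12 genes, 11 tested) these were 1 and 1, 2 and 1, and 1 and 0. The extraembryonic endoderm list (14 genes, 12 tested) had 2 and 4, 9 and 0, and 7 and 1, and the pluripotency list (12 genes) 2 and 1, 1 and 6, and 1 and 6.

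Alternatives were other scaling factors and filters, DESeq2 1.42.0, limma-voom (limma 3.58.1), single libraries, the shared name as the unit, and leaving out lines, names, a library or chromosomes. The edgeR steps were tested on simulated data. Tables and figures were made with Python 3.11.15, pandas 2.3.3 and matplotlib 3.10.9.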

Additional observations from a re-analysis of the deposited data

Results flagged for a closer look

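Among 98 groups of 4 lines (49 tested members in control and in db/db), 2 had a line set apart from the other 3 by more than Dixon's 95% limit for 4 values. Chance alone sets apart about 1 in 20, or 4.9 of 98. Psmc3, a base ATPase, was at 189 CPM in db/db line 4, against 208, 211 and 212 CPM in the other db/db lines. Psmg3, a chaperone of the alpha ring, was at 16.8 CPM in control line 1, the line with 1 library, against 18.5, 18.6 and 18.6 CPM in the other control lines.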

How the results depend on the processing

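For single members, 3128 alternative values kept direction and side of the threshold, 413 lost a call, 165 gained one, 132 changed sign without a call on either side and 4 changed sign with one. Those 4 came with TMM factors from genes of at least 100 CPM, an alternative added after the data had been seen: Psma3 (log2 fold change 0.028), Psmc1 (0.16) and Psmc3 (0.018) in corrected against db/db, and Psmd1 (0.0092) in corrected against control. Their cause was not tested. The counts below are of members higher and lower, and chromosome removal, DESeq2's size factors and the second library of db/db line 2 moved none of them by over 1.5 times.

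In db/db against control (8 higher, 1 lower, median log2 0.06) higher and lower members were 2 and 2 with library size alone, with a mean of at least 10 CPM and with factors from genes of at least 100 CPM. They were 2 and 1 with only the compared groups, 4 and 1 with no filter, 12 and 2 with DESeq2 or limma-voom, and 0 and 0 with the shared name as the unit. Without B1 they were 3 and 3, without db5 4 and 5 (median -0.028), and without db7 14 and 1 (median 0.13). Leaving out each line gave 2 to 9 higher, 1 lower and a median of 0.03 to 0.09.

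In corrected against db/db (1 higher, 32 lower, median -0.30) they were 3 and 16 (median -0.13) with library size alone, 2 and 18 (-0.19) with at least 10 CPM, 6 and 13 (-0.088) with factors from genes of at least 100 CPM, and 0 and 15 with the shared name. The higher count was 2 with single libraries and without A5, B1 or db5 (median -0.22 without db5), and 0 without db7. Leaving out each line gave 0 to 1 higher, 14 to 35 lower and a median of -0.35 to -0.25.

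In corrected against control (2 higher, 24 lower, median -0.22) they were 4 and 10 (median -0.091) with library size alone, 3 and 15 (-0.16) with at least 10 CPM, 5 and 10 (-0.058) with factors from genes of at least 100 CPM, 1 and 18 (-0.24) with no filter, and 1 and 6 with the shared name. Without A5 the higher count was 1 and the median -0.18 (as log2), and without B1 the higher count was 1. Leaving out each line gave 1 to 3 higher, 5 to 29 lower and a median of -0.23 to -0.20. Where 1 corrected line was left out, the other was assumed to vary like the other groups.

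Duplicate numbers do not pair lines by the labels. Same-numbered libraries of control and db/db lines deviated together with correlations of 0.01 to 0.53 over 9149 genes, above 0.1 in 11 of 12 pairs of lines. With each library as a sample, db/db against control gave 15 higher and 2 lower members (median 0.07) with the duplicate number as a replicate block, and 18 and 2 without the block. Corrected libraries carry letters and could not enter the block. Depth limits only Psmb8, Psmb9, Psmb11 and Psme2b, and the 2 corrected lines limit every comparison with them.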
